A study of Monodelphis domestica with 2 samples.

Results

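IT_A_3 is 1 of 5 types that the deposited annotation distinguishes within IT_A, a subclass of intratelencephalic (IT) glutamatergic neurons, in single nuclei from the primary visual cortex (V1) of a marsupial, the gray short-tailed opossum. Its members were the nuclei whose deposited type was IT_A_3 and whose subclass was IT_A. There were 1763 of them among 9864 IT_A nuclei and 32764 labelled nuclei. Animal 1 contributed 775 and animal 2 contributed 988. By library, 1A and 1B of animal 1 held 397 and 378, and 2A and 2B of animal 2 held 418 and 570. Of the 134 barcode matches counted over all pairs of libraries, 0 were between IT_A_3 nuclei.

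The nuclei came from 2 untreated adult male opossums, aged 1.5 years (animal 1) and 2 years (animal 2), which form 1 group with no control or treated arm. V1 tissue of both hemispheres was pooled within each animal, nuclei were sorted on the DNA dye Draq5, and each animal's suspension was split into 2 droplet libraries that count the 3′ ends of RNA. A different person handled each animal, so animal, age and handling cannot be told apart. Libraries of an animal are technical repeats, so an error given as SD is over the 2 animals. The type labels came from clusters of these same counts, and differences between types are therefore described without a test.

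Intratelencephalic neurons send their axons to other parts of the cortex and to the striatum, and in the rodent visual cortex they fill layers from just below the surface down to the deepest. Those of the upper layers express the homeobox gene CUX2 and carry signals between cortical areas. Those of the middle layer express RORB and receive much of the thalamic input. Within the upper layers, types are told apart mostly by graded levels of shared genes rather than by genes found in a single type. All layer names below refer to what is known in mouse, since the nuclei carry no position in the tissue.

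The share of IT_A_3 among IT_A nuclei differed little between the animals, whereas those of the other types varied more. It was 18.1% and 18.0% in libraries 1A and 1B, and 18.3% and 17.4% in 2A and 2B, with exact Clopper-Pearson 95% intervals from 16.1% to 19.9% over the 4 libraries. The mean was 17.9% ± 0.183 of IT_A nuclei and 8.73% ± 0.282 of glutamatergic nuclei (SD, n = 2). IT_A_1, the largest type, made up 22.8% of IT_A in animal 1 and 44.3% in animal 2, and IT_A_2 28.0% and 15.7%. Between the libraries of an animal, the IT_A_3 share gave a two-sided Fisher exact p of 0.968 in animal 1 and 0.413 in animal 2 (Benjamini-Hochberg adjusted 0.968 and 0.467 over the 10 tests of 5 types in 2 animals). The intervals and these tests cover counting error only, and shares between animals were not tested, since the comparison is 1 animal against 1.

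**Figure D1:**
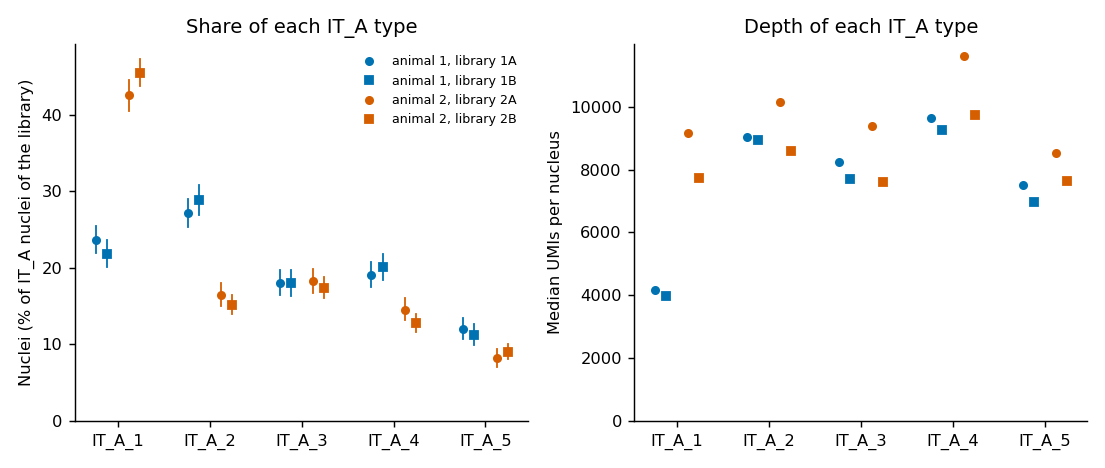
Share of each IT_A type among the IT_A nuclei of a library (left, percent, bars show exact 95% intervals) and median number of UMIs per nucleus (right), with 1 point per library. IT_A_3 lies between 17.4% and 18.3% in all 4 libraries, and the IT_A_1 nuclei of animal 1 have the lowest depth.

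A nucleus of IT_A_3 carried a median of 8102 ± 195 UMIs (unique molecular identifiers, each standing for a captured RNA molecule) and 3105 ± 45.3 detected genes. The library medians were 8239 and 7709 UMIs in animal 1 and 9388 and 7618 in animal 2, and single nuclei ranged from 986 to 32563. The other IT_A nuclei together had a median of 8317.5 ± 812. Depth was uneven among the other types. IT_A_1 nuclei had a median of 4049 UMIs in animal 1 and 8384 in animal 2, and IT_A_4 nuclei 9420 and 10859.5. Summed per animal, IT_A_3 held 6615349 UMIs in animal 1 and 9023141 in animal 2. Of the IT_A_3 nuclei, 14 (0.794%) carried the authors' doublet call, against 153 of the other 8101 IT_A nuclei (1.89%).

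RNA of other cell classes was low in IT_A_3. The 9 measured GABAergic markers summed to 22.8 CPM (UMI counts per 1000000 UMIs of a sum) in animal 1 and 17.1 in animal 2, against at least 1350 in any of the 5 GABAergic subclasses. The 5 oligodendrocyte markers summed to 91.8 and 97.0 CPM, against 15605 and 15951 in oligodendrocytes, and the 6 astrocyte markers to 99.6 and 126, against 20103 and 19126 in astrocytes. The 3 oligodendrocyte precursor markers summed to 2.42 and 0.887 CPM, the 5 microglia markers to 2.57 and 2.77, and the 4 endothelial markers to 18.0 and 34.0. OLIG2 and C1QA were at 0 in both animals, DLX2, KDR and PTPRC in animal 1 and CLDN5 in animal 2. Of these 6 lists only MBP and SLC1A2 reached the 20 CPM needed for a call under the rule given below, and neither was called, so the other markers could not be called whatever their fold. Of the 6 pan-glutamatergic markers, 3 had a symbol and 2 were measured, with a median log2 fold change of 0.02 against the other IT_A types.

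CUX2 was strongly expressed in IT_A_3 but did not set it apart within IT_A. Its level was 339, 343, 463 and 432 CPM in libraries 1A, 1B, 2A and 2B, the order kept for all library values below. Both libraries of animal 2 were above those of animal 1. IT_A_1 (552 ± 34.1 CPM) and IT_A_4 (500 ± 86.6) were above IT_A_3 (394 ± 75.1), and IT_A_2 (311 ± 37.6) and IT_A_5 (257 ± 33.4) below it, in the same order in both animals. IT_B held 437 ± 133 CPM and IT_D 581 ± 139, whereas IT_C, the IT subclass with the lowest level, held 31.9 ± 13.8 and oligodendrocytes 24.7 ± 10.3. IT_A_3 thus carried its marker, at rank 3 of the 5 IT_A types and 6 of 22 labelled groups in both animals. The log2 fold change against the other IT_A types was -0.17 ± 0.02. It came to 0.034 when IT_A_1 was left out of the other types.

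To describe how IT_A_3 differs from its nearest relatives, counts were summed per animal over IT_A_3 and over the other 4 IT_A types. A gene was called when it differed at least 2-fold in the same direction in both animals, on log2 of TMM-normalised CPM plus 1, and reached 20 CPM on the higher side in both. Of 6045 genes at that level, 17 (0.281%) were higher in IT_A_3 and 71 (1.17%) were lower. Since these counts shaped the clusters, the numbers are a description of the label. Symbols were available for 9 of the higher and 50 of the lower genes. The median log2 fold change over all genes at the level was -0.10. Levels printed below are plain CPM, and an error on a fold change is the SD of the animals' log2 values.

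These counts depended on both animals, on how the other types were weighted and on other choices. Without animal 1, 152 genes were higher and 83 lower, and without animal 2, 37 were higher and 122 lower, since each rule then used a single animal. With equal nuclei per type and animal, 17 genes were higher, 10 of them among the 17 above, and 74 were lower, 59 of them among the 71. After thinning each nucleus to 2000 UMIs, 44 were higher, 13 of them among the 17. A level of 5 CPM gave 39 higher and 141 lower genes, and fold changes fitted with edgeR gave 80 and 86, without the excess of lower genes.

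**Figure D2:**
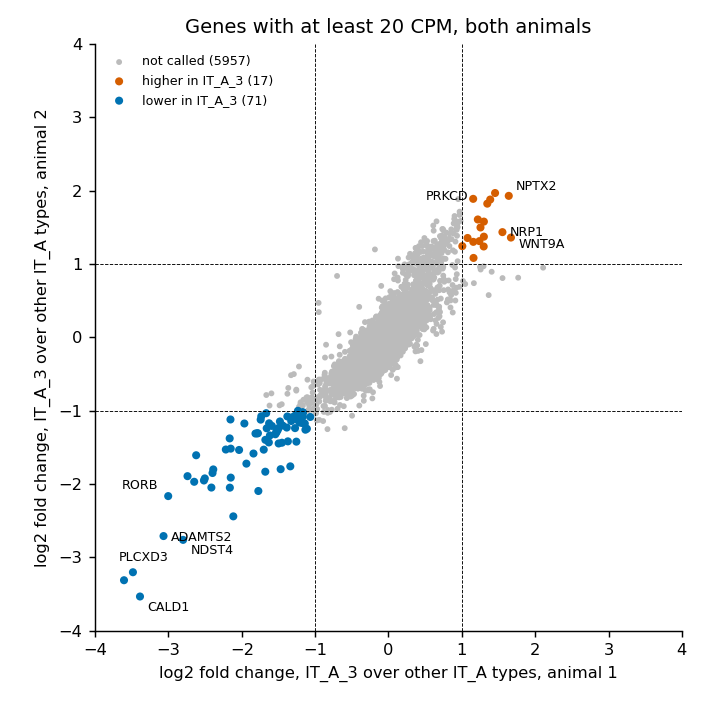
Log2 fold change of IT_A_3 over the other IT_A types in animal 1 (horizontal) and animal 2 (vertical) for the 6045 genes with at least 20 CPM on either side in both animals, with dashed lines at 2-fold. The 17 higher genes (orange) reach a mean of 1.78 and the 71 lower genes (blue) a mean of -3.46.

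Of the 9 named higher genes, NPTX2 had the largest difference. NPTX2 (ENSMODG00000008390), a secreted pentraxin that gathers AMPA-type glutamate receptors at synapses, was at 24.3, 19.97, 36.2 and 34.2 CPM. The other IT_A types together held 6.12, 6.25, 8.13 and 8.503 CPM. All 4 IT_A_3 values lay above all 4 of these, a log2 difference of 1.78 ± 0.20. Such separation of the libraries held for all 17 higher and all 71 lower genes, so it adds nothing to a call. Among the 22 labelled groups described, NPTX2 was highest in IT_A_3 in both animals. BDNF, the neurotrophin whose transcription follows neuronal activity, was at 104, 110, 161 and 170 CPM, against 42.5, 49.1, 65.8 and 65.0 in the other types. Its log2 difference was 1.23 ± 0.10, and its level in IT_A_5 was 9.71 CPM in animal 1 and 9.78 in animal 2. IT_D held 153 CPM in animal 1, above IT_A_3 (107), and 159 in animal 2, below it (166).

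PDYN encodes the precursor of the dynorphin opioid peptides. It was at 27.2, 35.2, 29.98 and 27.5 CPM, against 14.2, 13.0, 9.45 and 11.2 in the other IT_A types. These values did not overlap, as for every called gene. The log2 difference was 1.22 ± 0.20, and IT_A_3 ranked first of the 22 groups in both animals. IT_A_4 was the next IT_A type, with 23.0 CPM in animal 1 and 16.3 in animal 2. When each nucleus was thinned to 2000 UMIs, the PDYN difference was 0.74 and no longer 2-fold.

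WNT9A and RSPO3 both encode secreted proteins. WNT9A, a Wnt ligand, was at 40.5, 43.4, 54.5 and 46.2 CPM in IT_A_3 and at 11.8, 12.2, 17.4 and 19.5 in the other IT_A types, a log2 difference of 1.52 ± 0.22. IT_A_3 was again first of all 22 groups. Within IT_A only IT_A_1 held a sizeable level (28.9 ± 1.38 CPM), and without IT_A_1 among the other types the difference was 2.45. RSPO3, an R-spondin that amplifies Wnt signalling at its receptors, was at 32.1, 45.0, 37.1 and 37.0 CPM, against 17.2, 13.2, 10.2 and 12.1. The log2 difference was 1.41 ± 0.28. IT_A_5 (35.0 ± 5.72 CPM) did not differ from IT_A_3 (37.6 ± 0.869) beyond the spread between animals, and IT_A_2 was the lowest type (2.79 ± 0.898). RSPO3 came to 0.99 after thinning.

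A pair of guidance molecules was also higher. NRP1, a co-receptor for class 3 semaphorins and for VEGF, was at 64.5, 72.9, 92.0 and 86.6 CPM in IT_A_3 and at 22.1, 21.6, 29.7 and 33.4 in the other IT_A types, a log2 difference of 1.49 ± 0.08. Outside the IT neurons NRP1 was far higher, at 532 ± 35.9 CPM in L6CT, the layer 6 corticothalamic subclass. SEMA5A, a transmembrane semaphorin, was at 290, 323, 518 and 566 CPM, against 122, 127, 202 and 223, a log2 difference of 1.28 ± 0.05. Its level was higher in animal 2 than in animal 1 in IT_A_3 and in the other types alike, and the fold change was nearly equal in both animals.

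PRKCD, protein kinase C delta, was at 24.9, 26.6, 53.3 and 57.4 CPM in IT_A_3 and at 9.28, 8.95, 14.6 and 14.7 in the other IT_A types. The log2 difference was 1.59 ± 0.34, larger in animal 2 (1.82) than in animal 1 (1.35). Microglia held 185 ± 9.74 CPM and oligodendrocytes 49.2 ± 11.8. With each nucleus thinned to 2000 UMIs, PRKCD was seen in 6.80% of IT_A_3 nuclei, 2.08% of the other IT_A nuclei and 9.75% of oligodendrocytes, and without thinning in 19.0%, 8.09% and 9.22%. The thinned share in IT_A_3 was thus below that of oligodendrocytes. Oligodendrocytes held PRKCD themselves, so their share gives no background level, and expression in single IT_A_3 nuclei is not read from these shares. The markers of both glial types are given above, and the part of their RNA in the PRKCD difference was not tested. SPATS2L was at 360, 369, 389 and 413 CPM, against 146, 138, 160 and 171, a log2 difference of 1.27 ± 0.04. IT_A_5 held 367 ± 28.1 CPM of it, so IT_A_3 and IT_A_5 did not differ beyond the spread between animals. The other 8 higher genes carry no symbol in the files, led by ENSMODG00000045873 (1.71 ± 0.36) and ENSMODG00000040354 (1.63 ± 0.35).

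**Figure D3:**
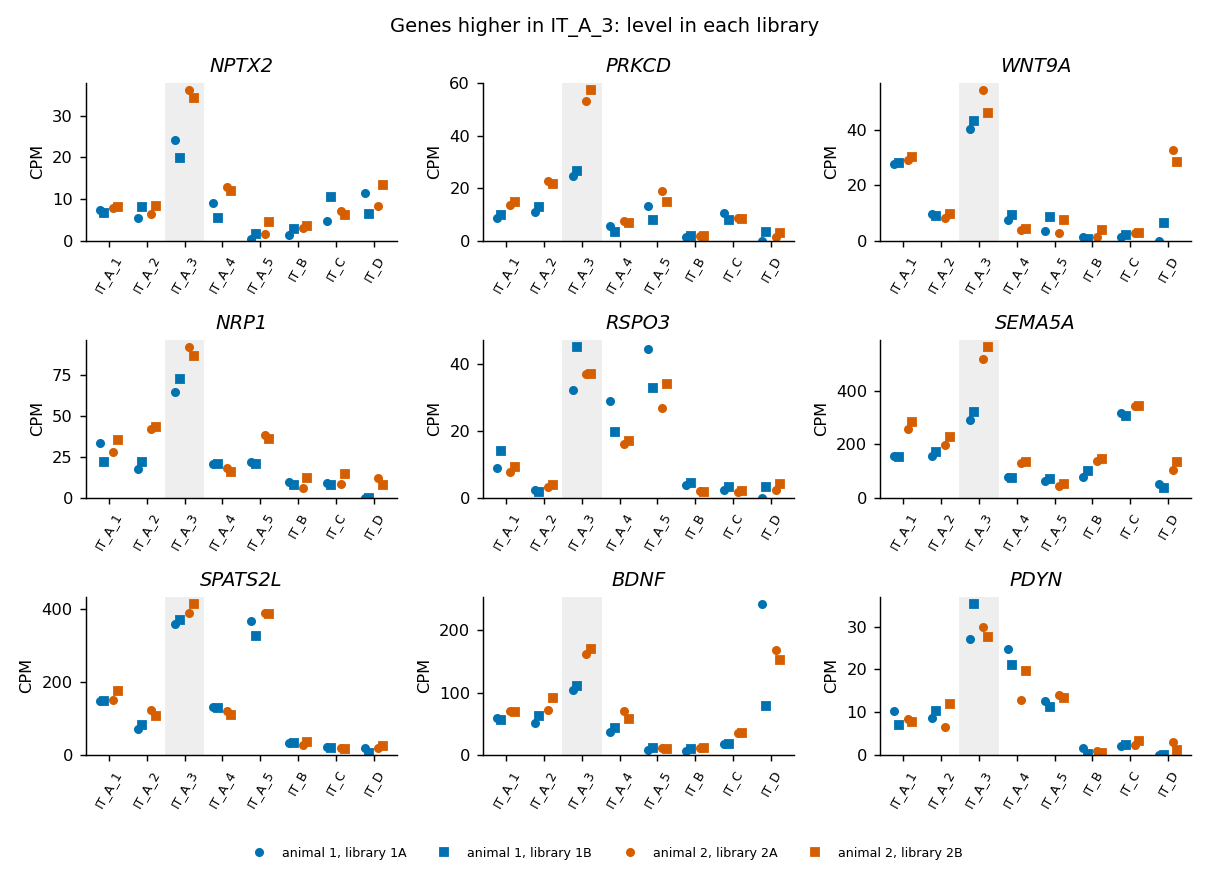
Level (plain CPM, linear axes from 0) of the 9 named genes higher in IT_A_3, by library, in the 5 IT_A types and in subclasses IT_B, IT_C and IT_D. The 4 IT_A_3 points (shaded) stand above the other IT_A types for 7 of the genes, and IT_A_5 overlaps them for RSPO3 and SPATS2L.

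Few of the called genes set IT_A_3 apart from every other type. NPTX2, PRKCD and NRP1 were the only 3 of them that exceeded each of the other 4 IT_A types at least 2-fold in both animals, and 0 genes fell below each of them by as much. IT_A_3 was the highest of the 5 types in both animals for 14 of the 17 higher genes. Of the 71 lower genes, it was the lowest of the 5 types for 24 and IT_A_5 for 22. In both animals IT_A_4 was the highest type for 30 of the lower genes and IT_A_2 for 28. The called genes were chosen against the other types together, so these ranks are partly set by that choice. No share over all genes stands beside them.

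Of the 12 named lower genes, 6 were highest in IT_A_4 among the IT_A types in both animals and 5 in IT_A_2, with PCSK5 highest in one or the other. CALD1, which encodes an actin- and myosin-binding protein, was at 2.02, 3.17, 2.06 and 1.50 CPM in IT_A_3, against 31.1, 40.4, 32.3 and 28.4 in the other IT_A types, a log2 difference of -3.46 ± 0.10. IT_A_4 held 117 ± 16.9 CPM and no other IT_A type more than 15.8 in either animal. PLCXD3, of the phospholipase C family, was at 3.18, 4.44, 3.89 and 3.87 CPM in IT_A_3 and at 185 ± 23.2 in IT_A_4, with a log2 difference against all other types of -3.34 ± 0.20. ZNF536, a zinc finger repressor, followed the same pattern, with 9.43 ± 2.05 CPM in IT_A_3, 174 ± 32.5 in IT_A_4 and no more than 11.4 in IT_A_1, IT_A_2 and IT_A_5 of either animal. For PLCXD3 and ZNF536, none of IT_A_1, IT_A_2 and IT_A_5 lay on the same side of IT_A_3 in both animals.

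NDST4, an enzyme of heparan sulfate synthesis, was at 36.7, 39.3, 28.6 and 30.7 CPM in IT_A_3, against 259, 263, 213 and 194 in the other IT_A types, a log2 difference of -2.78 ± 0.03. IT_A_4 held 838 ± 77.4 CPM and IT_A_2 24.4 ± 8.33. ADAMTS2, which trims procollagens, was at 15.03, 11.4, 9.61 and 9.89 CPM, against 117, 113, 67.9 and 67.5, and was high in both IT_A_4 (250 ± 60.3) and IT_A_5 (170 ± 14.5). COL5A2, a chain of type V collagen, was at 6.65, 1.27, 6.41 and 3.01 CPM in IT_A_3 and was highest in IT_A_2 (53.6 ± 4.03) and IT_C (129 ± 3.35). No value of IT_A_3 overlapped those of the other IT_A types together for these 3 genes, as for every called gene. For NDST4, IT_A_3 was not the lowest of the 5 types, at rank 4 in animal 1 and 3 in animal 2.

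RORB (ENSMODG00000002046), the nuclear receptor of layer 4 neurons, was low in IT_A_3. It was at 19.4, 10.8, 35.0 and 28.8 CPM. The other IT_A types held 126, 124, 133 and 151 CPM, so the log2 difference was -2.58 ± 0.59, with animal 1 at -3.003 and animal 2 at -2.16. IT_A_5 (16.1 ± 1.52 CPM) did not differ from IT_A_3 beyond the spread, whereas IT_A_2 held 190 ± 17.5, IT_C 808 ± 51.2 and IT_B 1468 ± 175. KCNH5, a voltage-gated potassium channel that belongs to the same list of layer 4 markers, was lower as well, with 151 ± 5.603 CPM in IT_A_3 and 335 ± 6.39 in the other IT_A types (log2 -1.19 ± 0.10).

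DCC, the netrin receptor, was at 19.7, 23.1, 16.7 and 17.4 CPM in IT_A_3, against 117, 128, 62.7 and 71.2 in the other IT_A types, a log2 difference of -2.23 ± 0.40. It reached 193 ± 52.3 CPM in IT_A_2 and 479 ± 92.0 in IT_B, and IT_A_3 was the lowest IT_A type in both animals. GABRA5, the alpha 5 subunit of the GABA-A receptor, was at 14.2, 19.97, 21.3 and 19.99 CPM, against 88.7, 92.4, 75.7 and 74.8 (log2 -2.12 ± 0.39), and was at 392 ± 51.5 in IT_C. ATP10A, a lipid flippase, was at 24.8 ± 10.3 CPM in IT_A_3, 281 ± 58.0 in IT_A_2 and 581 ± 14.8 in IT_C. PCSK5, a proprotein convertase, was at 11.4 ± 0.394 CPM in IT_A_3, at 12.1 ± 2.61 in IT_A_5 and at 89.0 ± 9.001 in IT_A_2, with IT_A_4 at 97.0 in animal 1 and 68.7 in animal 2.

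Of the 3 measured glutamate receptors that act through G proteins, 2 were lower, beside 1.17% of all genes, with a list median of -1.83. GRM4 reached 20 CPM in the other IT_A types alone, so it could be called only as lower. Nothing is read from the count or the median. GRM4, a presynaptic group III receptor, was at 6.36, 7.29, 11.4 and 11.2 CPM in IT_A_3 and at 44.9, 48.2, 46.9 and 45.5 in the other IT_A types (log2 -2.31 ± 0.48). GRM3, a group II receptor, was at 94.5, 85.9, 135 and 137 CPM, against 338, 335, 438 and 444 (log2 -1.83 ± 0.15). The third measured member of the list, GRM7, had a log2 difference of -0.43. Of the 12 ionotropic glutamate receptor genes measured, only the kainate receptor subunit GRIK3 was called, with 25.3 ± 2.45 CPM in IT_A_3 and 87.9 ± 24.9 in the other types (log2 -1.77 ± 0.56). GRIK4, also a kainate subunit, stood the other way with 1162 ± 41.0 CPM in IT_A_3 and a log2 difference of 0.53 ± 0.12, short of 2-fold.

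Across the 71 lower genes, 61 were above IT_A_3 in both animals in IT_B, 61 in IT_C, 64 in IT_A_2, 63 in IT_A_1 and 60 in IT_A_4. In IT_A_5 the number was 37, with 22 genes below IT_A_3. The median log2 difference over the 71 genes was 0.28 for IT_A_5 minus IT_A_3 and 1.76 for IT_A_4 minus IT_A_3. The genes were chosen as lower than the other IT_A types together, so values within IT_A are largely set by that choice. No share over all genes stands beside the counts. Among the 21 lower genes without a symbol, ENSMODG00000035872 (-3.46 ± 0.21) and ENSMODG00000046855 (-1.64 ± 0.73) had the largest differences.

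**Figure D4:**
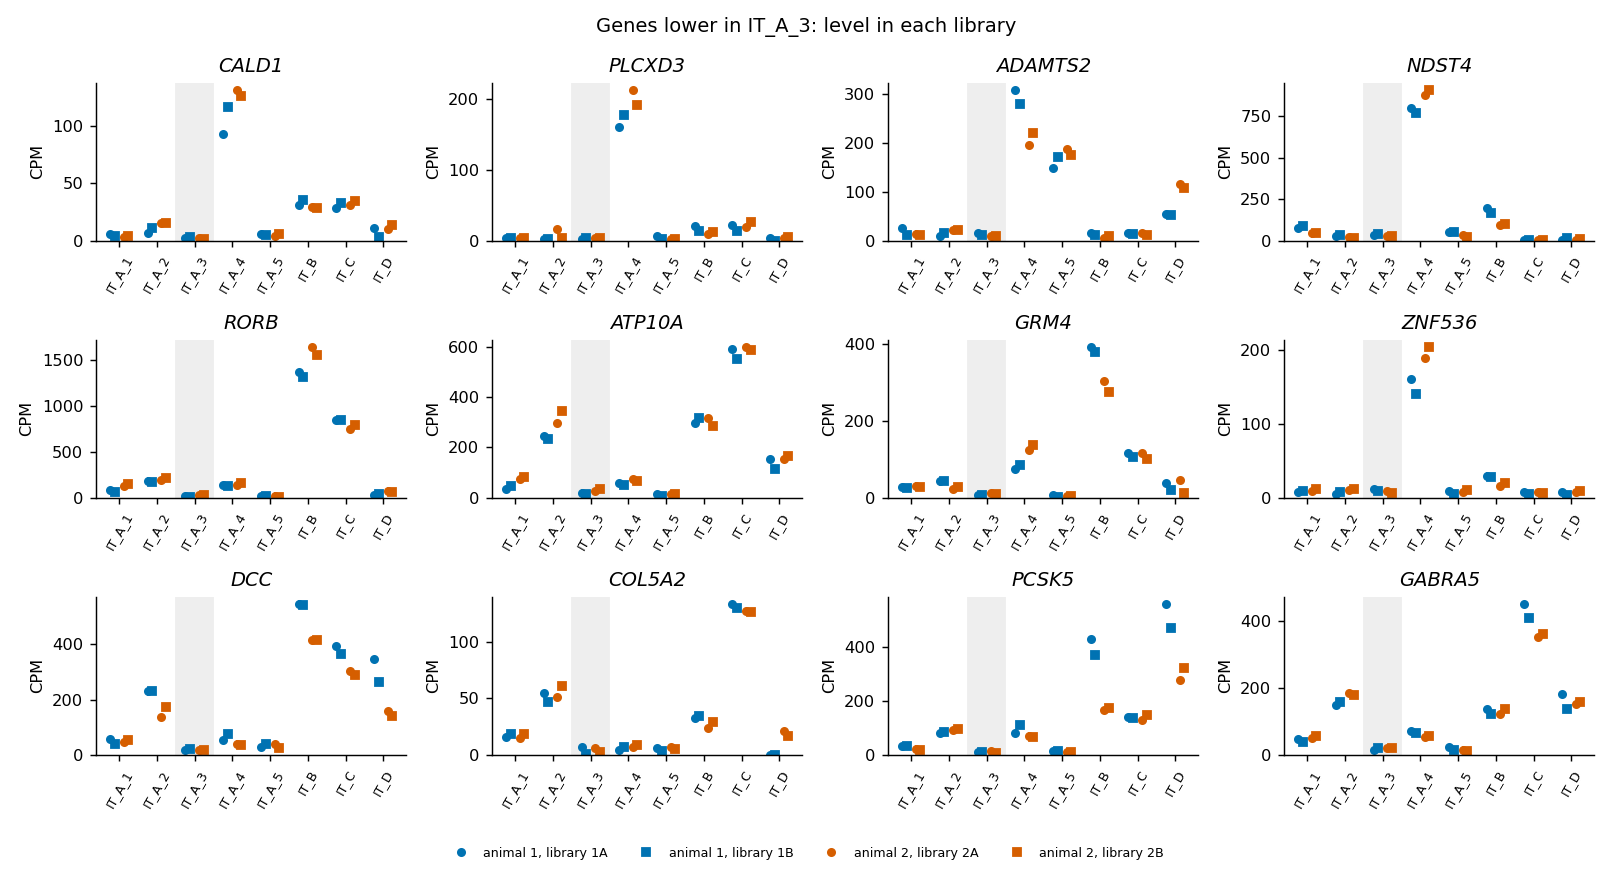
Level (plain CPM, linear axes from 0) of the 12 named genes with the largest decrease in IT_A_3, by library, in the 5 IT_A types and in subclasses IT_B, IT_C and IT_D. IT_A_3 (shaded) lies near 0 throughout, and the high values fall in IT_A_4 for CALD1, PLCXD3, NDST4 and ZNF536 and in IT_B and IT_C for RORB.

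Most genes of the lists with shared roles were within 2-fold of the other IT_A types. Each count below stands beside 0.281% of all genes called higher and 1.17% called lower, in the same contrast that defined the calls, and nothing is read from it. A gene that reached 20 CPM on a single side could be called in that direction alone. Of 10 mouse layer 2/3 markers, 6 were measured and 0 were called, with a median log2 fold change of 0.17 beside -0.10 over all genes. OTOF, a calcium sensor of vesicle release, had the largest value of that list at 1.53 ± 0.82. It was at 56.1, 58.9, 74.6 and 76.3 CPM in IT_A_3, with the other types at 12.9 and 11.2 in animal 1 and at 34.9 and 40.2 in animal 2, and fell short of 2-fold in animal 2. IT_A_2 held 5.09 ± 1.21 CPM of OTOF and IT_A_5 55.03 ± 41.2. LAMP5 (40.5 ± 1.57 CPM) and CALB1 (71.96 ± 4.27), both upper-layer markers, were highest in IT_A_3 among the IT_A types in both animals, with log2 differences of 0.65 ± 0.15 and 0.52 ± 0.01. The other 3 measured members were below the other IT_A types in both animals, within 2-fold, with CUX1 at -0.38, RASGRF2 at -0.22 and CUX2 at -0.17.

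Of the 7 layer 4 markers, 3 were measured and 2 were lower (RORB and KCNH5), with a list median of -1.19. RORB and the third member, WHRN, reached 20 CPM in both animals in the other IT_A types alone. Of the 14 markers of layer 5 and 6 IT neurons, 5 were measured and 2 were lower, with a median of -0.95. These were BCL11B, a zinc finger factor, at 27.2, 33.0, 37.1 and 30.5 CPM in IT_A_3 and 432 ± 9.33 in IT_A_4, and TOX, an HMG-box factor, at 120 ± 23.0 in IT_A_3 and 438 ± 14.2 in IT_A_2. Of 12 markers of the other glutamatergic subclasses, 3 were measured and 1 was lower, again BCL11B. Of 39 transcription factors of projection neurons, 25 were measured and 0 were called, with a median of -0.21. Of these, 16 were below the other IT_A types in both animals and 7 above. FOXP2 (-0.81), NFIA (-0.77) and TLE4 (-0.68) had the largest negative values, all short of the rule, and TOX3 the largest positive value (0.68 ± 0.24), at 207 ± 32.7 CPM in IT_A_3 and 301 ± 23.1 in IT_A_5.

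Of the 25 activity-regulated genes, 4 reached the level and 2 of them were higher, NPTX2 and BDNF, beside 0.281% of all genes. The list median of 0.98 rests on these 4 of the 23 genes with a symbol. NPTX2 and FOSL2 reached 20 CPM in IT_A_3 alone, the side where they were higher. The median and the count are therefore partly set by the level, and nothing is read from them. FOSL2 had a difference of 0.74 ± 0.05 and HOMER1 of 0.15 ± 0.06. The immediate early genes were at low levels in IT_A_3 and in the other IT_A types. FOS was at 2.87 CPM in animal 1 and 4.32 in animal 2, against 2.64 and 2.77 in the other types, and EGR1 at 10.6 and 15.1, against 12.6 and 13.6. ARC was at 4.84 and 4.88 CPM, against 2.47 and 2.23, and NPAS4 at 2.27 and 4.99, against 1.32 and 3.44. Of the 19 listed genes with a symbol that were under 20 CPM, 9 were above the other IT_A types in both animals, 3 were below and 7 differed in direction between the animals. HOMER1 was at 737 CPM in animal 1 and 1743 in animal 2 in IT_A_3, and at 621 and 1580 in the other types.

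Surface and matrix lists held the remaining calls. Of 26 axon guidance genes measured, 2 were higher (NRP1 and SEMA5A) and 1 was lower (DCC), beside 0.281% and 1.17% of all genes, with a median of -0.19. Of 14 matrix and proteoglycan genes, 3 were lower, namely NDST4, the heparan sulfate sulfotransferase HS3ST2 (log2 -1.71 ± 0.18) and the transmembrane collagen COL25A1 (-1.20 ± 0.16), with a median of -0.37. Of 30 synaptic adhesion genes, 2 were lower, the netrin G1 gene NTNG1 (-1.55 ± 0.34) and the teneurin TENM1 (-1.35 ± 0.45), with a median of -0.07. Of 21 cadherins and protocadherins, 1 was lower, CDH13 (-1.12 ± 0.10), and FAT3 came to -0.97 ± 0.16, with a list median of -0.22. Of 29 potassium and HCN channel genes only KCNH5 was called and the median was -0.09. Of 9 GABA receptor genes only GABRA5 was called, with a median of -0.15, and the median of the 12 ionotropic glutamate receptor genes was -0.04. Of 8 receptors for neuromodulators and peptides 0 were called, with a median of -0.0045.

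Against each type in turn, IT_A_3 differed most from IT_A_1 in the upward direction and from IT_A_4 in the downward direction. Under the same rule, 243 genes (4.01%) were higher in IT_A_3 than in IT_A_1 and 53 (0.875%) were lower. The nuclei of IT_A_1 were shallow in animal 1, with a median of 4049 UMIs, and the part of depth in this count was not tested. Against IT_A_2, 84 genes (1.38%) were higher and 110 (1.81%) lower, against IT_A_4 95 (1.57%) and 163 (2.69%), and against IT_A_5 106 (1.74%) and 88 (1.44%). Among genes with a symbol, OTOF led those higher than in IT_A_2, at 57.4 and 75.5 CPM in IT_A_3 of the 2 animals against 4.23 and 5.94 (log2 3.52 ± 0.05). ADGRG2, an adhesion G protein-coupled receptor, led those higher than in IT_A_4, at 188 and 175 CPM against 7.93 and 8.25 (log2 4.33 ± 0.09). BDNF led those higher than in IT_A_5 (log2 3.71 ± 0.50), followed by the sorting receptor SORCS3, at 636 and 847 CPM against 62.0 and 74.2. ADAMTS2 was the named gene most reduced relative to IT_A_5 (log2 -3.71 ± 0.36). The IT_A_3 sums are common to these 4 comparisons.

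Across the 3000 most variable genes, the mean profile of IT_A_3 had its highest mean correlation with IT_A_2, with a Spearman rho of 0.933 ± 0.00300 (SD of 2 animals), then IT_A_4 (0.927 ± 0.000557), IT_A_1 (0.923 ± 0.0262) and IT_A_5 (0.919 ± 0.00418). IT_A_3 against itself gave 0.920 between libraries 1A and 1B, 0.927 between 2A and 2B and 0.939 between the animals. Profiles of libraries, the technical repeats, rest on fewer nuclei than the profiles of whole animals. With each nucleus thinned to 2000 UMIs the repeats gave 0.913 and 0.917, and IT_A_3 with IT_A_2 0.897. No order among the IT_A types is read from these values. For IT_A_1, rho was 0.905 in animal 1 and 0.942 in animal 2. The values for the other IT subclasses were lower, with 0.903 ± 0.00127 for IT_B, 0.897 ± 0.00536 for IT_C and 0.836 ± 0.0622 for IT_D, which had 58 nuclei in animal 1. With all genes detected, IT_A_1 in animal 1 (0.925) was below IT_B (0.940) and IT_C (0.937), as it was with 1000 variable genes (0.867 against 0.876 and 0.870). These correlations run over genes, which are not independent replicates, and profiles of an animal share libraries.

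To describe how single nuclei of IT_A_3 compare with those of the other animal, each nucleus was given the commonest type among its 15 nearest neighbours in the other animal. Of the IT_A_3 nuclei, 90.2% of animal 1 (699 of 775, exact 95% interval 87.9% to 92.2%) and 82.8% of animal 2 (818 of 988, 80.3% to 85.1%) received their own type. The mean was 86.5% ± 5.23. It lay near those of IT_A_1 (83.6% ± 11.2), IT_A_2 (86.9% ± 6.93) and IT_A_4 (90.6% ± 3.77). That of IT_A_5 was higher (96.9% ± 1.22). IT_A_4 was at 87.9% in animal 1, below IT_A_3, and at 93.2% in animal 2, above it. Misplaced nuclei of animal 1 went mostly to IT_A_5 (49 nuclei, 6.32%), and those of animal 2 to IT_A_2 (60, 6.07%) and IT_A_4 (51, 5.16%). In the reverse direction, in animal 1 123 of 1204 IT_A_2 nuclei (10.2%) and 74 of 842 IT_A_4 nuclei (8.79%), and 188 of 2465 IT_A_1 nuclei of animal 2 (7.63%), were placed in IT_A_3. Misplaced IT_A_3 nuclei had a median of 7871 UMIs in animal 1 and 8318 in animal 2, and correctly placed ones 7977 and 8220.5. The labels had been made on both animals together, so the placement is not independent of them.

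**Figure D5:**
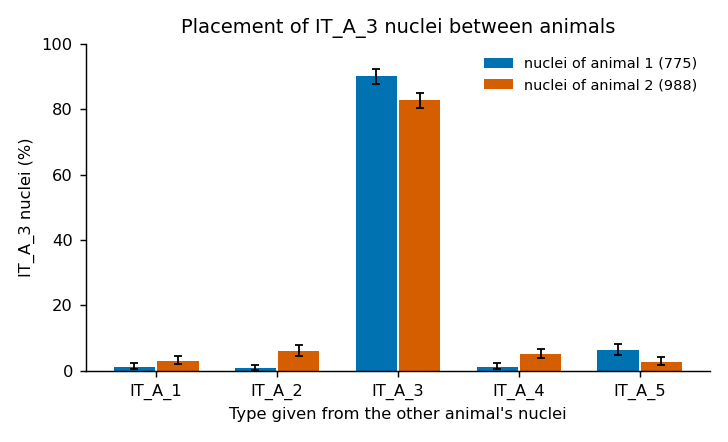
Percent of IT_A_3 nuclei (vertical axis) of animal 1 and of animal 2 given each IT_A type (horizontal axis) from the nuclei of the other animal, with exact 95% intervals. Most nuclei received IT_A_3, 90.2% in animal 1 and 82.8% in animal 2.

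In single nuclei the marker genes differed widely in how often they were seen. With each nucleus thinned to 2000 UMIs, which kept 1750 of the 1763 IT_A_3 nuclei and 8032 of the other 8101, CUX2 was seen in 48.6% of IT_A_3 nuclei and in 53.6% of the others, against 4.66% of the 1846 oligodendrocytes deep enough. Without thinning these shares were 84.8%, 82.4% and 4.89%. NPTX2 was seen in 3.89% of IT_A_3 nuclei (exact 95% interval 3.03% to 4.90%), 1.34% of the others and 0.108% of oligodendrocytes. Without thinning the NPTX2 shares were 14.7%, 5.23% and 0.124%, at median depths of 8102 UMIs in IT_A_3 and 1916.5 in oligodendrocytes. BDNF was seen in 18.3% of thinned IT_A_3 nuclei, 8.14% of the others and 0.650% of oligodendrocytes, and without thinning in 45.2%, 24.6% and 0.692%. RORB was seen in 3.03% of thinned IT_A_3 nuclei and 17.5% of the others. Its share in oligodendrocytes was 4.88%, above that of IT_A_3, so expression in single IT_A_3 nuclei is not read from it. Without thinning the RORB shares were 12.0%, 36.5% and 5.39%.

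The 9 named higher and 12 named lower genes were chosen on these same nuclei, so the direction of the following shares is fixed by that choice. None of the 9 was seen in 26.2% of thinned IT_A_3 nuclei of animal 1 and 21.2% of animal 2, against 38.2% to 58.4% in the other types and animals. Of the 12 named lower genes, an IT_A_3 nucleus showed 0.284 on average in animal 1 and 0.273 in animal 2. The mean was 2.25 and 2.44 in IT_A_4 and 0.485 and 0.508 in IT_A_5.

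The 2 animals were also compared within IT_A_3. Of 6259 genes with at least 20 CPM in either animal, 28 (0.447%) were at least 2-fold higher in animal 2 and 35 (0.559%) in animal 1, with no overlap between the libraries. Lack of overlap alone held for 61.8% of the genes. With 2 libraries against 2 it also occurs often without any difference, so for a single gene it is not read as one. The share that would be seen without any difference is not given here. Between libraries of an animal, 1 gene was 2-fold apart in animal 1 and 0 in animal 2. This compares 1 animal with 1, and no test was made.

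Among genes with a symbol, NOL11, a nucleolar protein, showed the largest such ratio, at 29.2 and 31.4 CPM in the libraries of animal 1 and 249 and 264 in those of animal 2 (8.26-fold). The same direction held in the other IT_A types, which were at 34.6, 31.9, 109 and 110 CPM. FERMT1, a kindlin of integrin adhesion, was the largest named gene in the other direction, at 54.0 and 62.4 CPM in animal 1 and 11.9 and 6.88 in animal 2 (5.73-fold). SIN3A, a corepressor scaffold, was 2.81-fold and the ephrin receptor EPHB2 2.26-fold higher in animal 1, and PLXND1, a semaphorin receptor, 2.30-fold. The other IT_A types differed the same way, with log2 differences of animal 2 minus animal 1 of -2.31 for FERMT1, -1.42 for SIN3A, -0.92 for EPHB2 and -0.68 for PLXND1, against -2.52, -1.49, -1.18 and -1.20 in IT_A_3. GLIS3, a zinc finger factor, was at 51.4 and 31.7 CPM in animal 1 and 157 and 182 in animal 2 (3.97-fold). Relative to the other IT_A types GLIS3 was lower in IT_A_3 of animal 1 (log2 -0.70) and higher in that of animal 2 (0.84), so it was not called.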

How the data were processed

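Reads of the droplet libraries (10x 3′ chemistry) were aligned by the authors with Cell Ranger to the assembly ASM229v1. Intronic reads counted, and the Ensembl gene models had lengthened 3′ ends. The labels give version 6.1.1 and the matrix headers 7.1.0. They deposited raw UMI counts per gene and nucleus, and per-nucleus metadata with class, subclass and type labels from their clustering and Scrublet's doublet score (a fraction). All 32764 labelled nuclei were used. Nuclei called doublets were kept, except in 1 alternative. Of 30800 genes, 11576 had a unique symbol, and the others were counted by identifier.

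Counts were summed per animal and type, since nuclei are not replicates. CPM is UMI counts per 1000000 UMIs of a sum. Fold changes used TMM factors from edgeR 4.0.16 (R 4.3.3) and log2 of CPM plus 1. A call needed a 2-fold difference in both animals and 20 CPM on the higher side. The planned edgeR quasi-likelihood fit gave only estimates of fold changes for an alternative, and its p-values were not read, because the labels come from the same counts. DESeq2 1.42.0 served as an alternative. Sums of the same animal are paired by that animal: the animal 2 minus animal 1 log2 differences of IT_A_3 and of the other IT_A types correlated at 0.746 across genes. Correlations used 3000 variable genes on values scaled to 10000 UMIs per nucleus. Placement between animals used 30 principal components, 15 neighbours and at most 500 training nuclei per type. Shares carry exact 95% intervals. Python 3.11.15, scipy 1.17.1, scikit-learn 1.9.0 and scanpy 1.11.5 were used. The call rule and the placement were also run on simulated counts with known answers. That checks the code and not the type labels, which came from clusters of the real counts.

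The members, the 22 gene lists (416 genes, 350 with a symbol) and the tests were chosen with earlier results of these data known. Named genes were the 12 with a symbol and the largest mean change in each direction (9 were higher in all). CUX2 and up to 4 members per list were named too. Between the animals, the 5 largest ratios in each direction were listed, and not all of them are printed above. Markers with low values, the genes of the paired comparisons between types and the immediate early genes were named in addition, after their values were seen. Alternatives covered normalization, the 20 CPM level, pseudocount, weighting, doublets, thinning, labels from other genes, the block, placement settings and leaving out each animal.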

Additional observations from a re-analysis of the deposited data

How the results depend on the processing

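The counts of genes called moved with the level required and more, for the higher genes, with leaving out animal 1 or using fitted fold changes. With 5 CPM in place of 20, 39 genes were higher and 141 lower in IT_A_3, and with no such level 48 and 196. The unweighted mean of the other types gave 29 higher genes (14 of the 17 among them), and thinning each nucleus to 2000 UMIs gave 44 (13 of the 17). Leaving out 1 animal gave 37 to 152 higher and 83 to 122 lower genes, where the call needed only the remaining animal. Fitted fold changes gave 80 higher genes with edgeR without the replicate block, 86 with the replicate block, which pairs sums of the same animal, and 76 with DESeq2. The lower genes numbered 86, 85 and 90. A fitted fold change pools both animals and does not require 2-fold in each. For CUX2, the log2 difference was -0.13 with plain CPM, -0.048 with the unweighted mean, -0.23 after thinning, -0.0060 with equal nuclei and 0.034 without IT_A_1, and the cause was not tested. The mean number of UMIs in IT_A_3 nuclei was 8834, above the median. With 1000 variable genes, rho was 0.893 for IT_A_1, 0.907 for IT_A_2, 0.897 for IT_A_4, 0.898 for IT_A_5, 0.877 for IT_B and 0.875 for IT_C. With all genes detected it was 0.939 for IT_A_1 (0.925 in animal 1 and 0.953 in animal 2), 0.964 for IT_A_2, 0.957 for IT_A_4, 0.953 for IT_A_5, 0.939 for IT_B and 0.936 for IT_C. After thinning it was 0.868 for IT_A_1, 0.897 for IT_A_2, 0.878 for IT_A_4, 0.886 for IT_A_5, 0.805 for IT_B, 0.798 for IT_C and 0.709 for IT_D. IT_A_2 had the highest mean rho under each of these 3 choices, but in animal 2 IT_A_1 was above it with 1000 genes (0.920 against 0.908), and thinned technical repeats of IT_A_3 gave 0.913 and 0.917. Thinned nuclei received IT_A_3 in 80.1%. Leaving out IT_A_1 and the other 2 random draws of training nuclei (86.4% and 85.0%) are alternatives added after seeing the data. Of 147 values of the 21 named genes under these alternatives, leaving out an animal aside, 116 stayed within 1 SD and 31 moved, none to the opposite sign. Of 65 values of the main results, again leaving out an animal aside, 34 moved and 31 did not. Gene counts have no SD and were held to a wider limit, under which 98 and 104 lower genes counted as unmoved from 71. NPTX2 was seen in 3.89% of thinned IT_A_3 nuclei and in more of them without thinning. The parts of depth and of its low level in this share were not tested.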
